A study of Homo sapiens with 6 samples.

Results

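The interleukin 1 genes described here are 8 genes chosen by symbol: the cytokines IL1A, IL1B and IL18, the antagonist IL1RN, the receptors IL1R1, IL1R2 and IL1RAP, and the adaptor MYD88. Of these, 7 were measured, out of 22152 genes in all, and IL1R2, the decoy receptor, was not analysed here. RNA was sequenced from HaCaT cells, a spontaneously immortalized human keratinocyte line, to find which transcripts change when miR-21-3p is raised. A mimic is a synthetic double-stranded RNA that acts as the mature microRNA once inside the cell. In 1 group the cells received 1 nM of miR-21-3p mimic and in the other 1 nM of negative control (NC) mimic, and RNA was taken 48 h after transfection from 3 libraries per group. Estimated from the rounded values, each library held between 24406408 and 27962619 reads assigned to genes.

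Interleukin 1 alpha and beta are agonists of the same receptor. They bind IL1R1, which then recruits the accessory chain IL1RAP, and the paired chains pass the signal through MYD88 to IRAK kinases, NF-kB and MAP kinases. The antagonist encoded by IL1RN occupies IL1R1 without signalling, and IL-18 uses its own receptor but the same adaptor. In the epidermis keratinocytes are a main source of these cytokines, which are known for their part in psoriatic inflammation.

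All values are reads scaled between libraries by size factors, called normalised reads. A gene was tested when it reached 10 normalised reads in at least 3 libraries, and called when the limma p adjusted by Benjamini-Hochberg over all tested genes was below 0.05. Of 14795 tested genes, 904 were higher and 689 lower with the miR-21-3p mimic. The count of 1593 called genes depended on single libraries: it was 542 without NC mimic replicate 1, 2957 without NC mimic replicate 2, 176 without NC mimic replicate 3, 277 without miR-21-3p mimic replicate 1, 1541 without miR-21-3p mimic replicate 2 and 365 without miR-21-3p mimic replicate 3. On the first principal component, which held 46.7% of the variance, NC mimic replicates 1, 2 and 3 lay at 21.3, 1.95 and 13.3 and the miR-21-3p libraries at -11.8, -6.86 and -17.8. NC mimic replicate 2 was thus the NC library nearest to the miR-21-3p libraries, and the count of called genes rose when it was left out, hardly moved without miR-21-3p mimic replicate 2 and fell without any of the others. Genes that passed only in another setting are not counted as called, and they are given with the range of their adjusted p over 15 other settings.

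Of the 7 tested interleukin 1 genes, 1 was called, IL1B, and it was higher with the miR-21-3p mimic. Of all tested genes, 10.8% were called in either direction, 6.11% as higher and 4.66% as lower. A share of 1 in 7 is near that background. An unadjusted limma p below 0.05 was found for 4 of the 7, against 28.5% of all tested genes. The ranges of the groups were apart, with the mimic higher, for 5 of the 7 genes (IL1A, IL1B, IL1RN, IL18 and IL1R1), against 16.5% of all tested genes. With the mimic lower they were apart for 0 of the 7, against 14.8% of all tested genes. The median log2 fold change was 0.11 over the 7 genes and 0.004 over all tested genes.

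**Figure D1:**
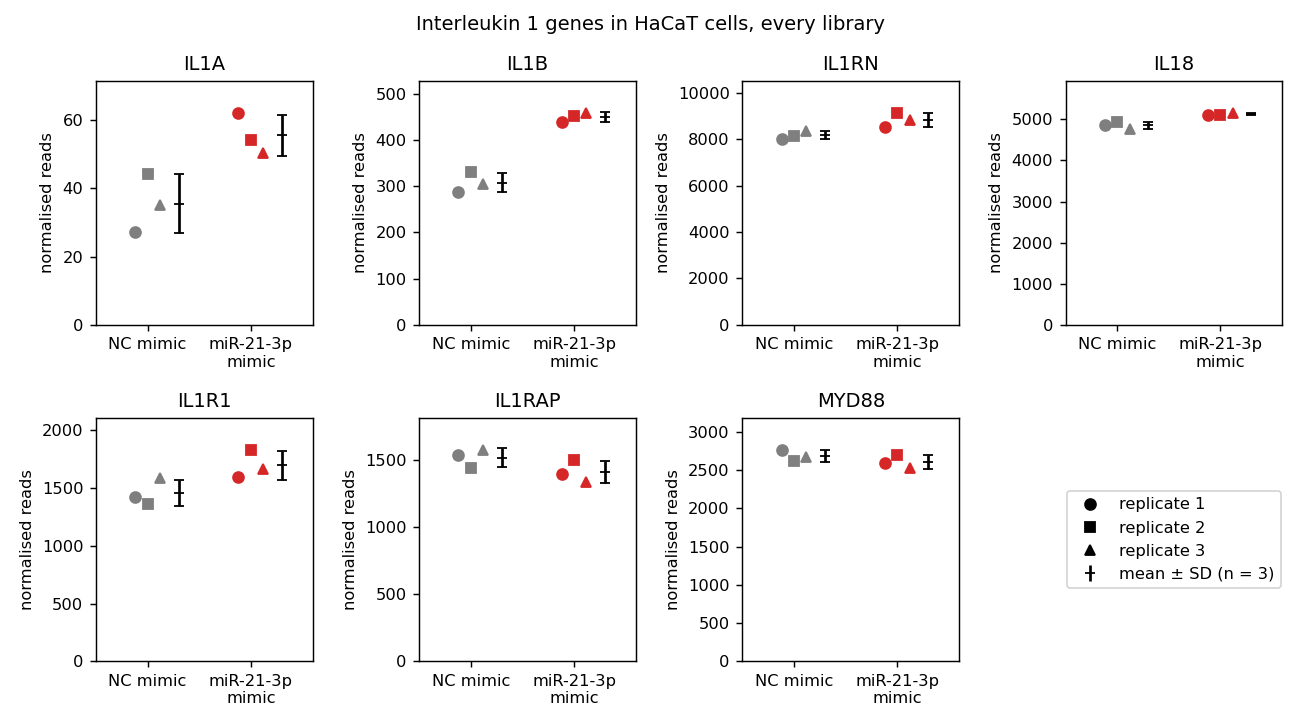
Normalised reads (vertical axes, from 0) of the 7 measured genes in each library of the NC mimic and miR-21-3p mimic groups; each point is 1 library and the bar is the mean ± SD of 3. IL1B reached 439 or more in each miR-21-3p library and at most 330 in the NC libraries.

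IL1B (ENSG00000125538), which encodes interleukin 1 beta, was at 288, 330 and 305 normalised reads in NC mimic replicates 1, 2 and 3, and at 439, 452 and 459 in miR-21-3p mimic replicates 1, 2 and 3. Each miR-21-3p library was above each NC library, so the groups did not overlap. The means were 450 ± 10.1 with the miR-21-3p mimic and 308 ± 21.1 with the NC mimic (SD, n = 3). The log2 fold change was 0.55 (SE 0.078, 95% interval 0.38 to 0.72), a fold of 1.46, with a limma adjusted p = 0.00357. Among the 904 genes called as higher, the median log2 fold change was 0.29, and 92.5% of these genes had a smaller one than IL1B. The gene was called under each of 15 other settings tried, with log2 fold changes from 0.50 to 0.60 and adjusted p from 2.78e-05 to 0.0416, and without NC mimic replicate 2 its log2 fold change was 0.60. Between 276 and 511 reads per library lay behind these values.

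IL1A (ENSG00000115008), which encodes interleukin 1 alpha, was at 27.1, 44.3 and 35.2 normalised reads in NC mimic replicates 1, 2 and 3 and at 62.2, 54.3 and 50.3 in the miR-21-3p replicates. The groups did not overlap, and NC mimic replicate 2 was the highest of the NC libraries. The log2 fold change of 0.65 (SE 0.2, 95% interval 0.21 to 1.09) did not pass the test (limma adjusted p = 0.0576). Without NC mimic replicate 2 it was 0.82 and passed, with an adjusted p = 0.0135, and over 15 settings it ranged from 0.48 to 0.82, with adjusted p from 0.0135 to 0.196. From 26 to 61 reads per library lay behind these values, fewer than for any other of the 7 genes.

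The promoters of IL1B and IL1A, whose genes are neighbours on chromosome 2, are shown because these were the cytokine genes with the 2 largest fold changes among the 7. Both are from RefSeq, build GRCh38.p14, and run from 250 bases before to 50 bases after the start, 5′ to 3′ on the minus strand. Of the 8 genes, 7 had an entry. Of the 2 starts listed for IL1A, the first in the table is shown. Capitals mark matches, on either strand, to the AP-1 motif TGAGTCA, the STAT motif TTCNNNGAA or the letters TATAAA.
IL1B, chr2:112836730-112837029: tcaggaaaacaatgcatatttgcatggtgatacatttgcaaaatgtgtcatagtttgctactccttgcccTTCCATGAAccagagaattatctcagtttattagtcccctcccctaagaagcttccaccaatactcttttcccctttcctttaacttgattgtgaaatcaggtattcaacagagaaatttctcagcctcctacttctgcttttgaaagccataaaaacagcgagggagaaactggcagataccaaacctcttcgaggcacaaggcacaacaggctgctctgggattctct
IL1A, chr2:112784444-112784743: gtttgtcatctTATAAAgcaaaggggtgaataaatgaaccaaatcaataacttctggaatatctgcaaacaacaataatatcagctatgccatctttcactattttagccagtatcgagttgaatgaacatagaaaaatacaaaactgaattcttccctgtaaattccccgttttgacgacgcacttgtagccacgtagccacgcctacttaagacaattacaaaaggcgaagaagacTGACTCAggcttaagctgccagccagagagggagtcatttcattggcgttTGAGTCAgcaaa
In the IL1B window there was 1 match, to the STAT letters, which 7.66% of 35116 promoters held. In the IL1A window there were 2 matches to the AP-1 letters. At least 1 match to these letters was held by 4.95% of promoters, and the share with 2 was not counted. This window also had 1 match to TATAAA, at -239 bases from the start, which 11.5% of promoters held. The window of the other IL1A start overlaps it and also had 2 matches to the AP-1 letters, but 0 to TATAAA. An NF-kB pattern of 10 letters was searched in an earlier run, where it had no match in the windows of either gene, and was then left out. In that run the AP-1 motif allowed any middle letter, with the same matches in these windows. Both changes were made because of how the letters could be written, after the matches were seen. These matches describe the letters only.

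IL18 (ENSG00000150782), the gene of a cytokine that is stored as a precursor and cleaved by caspase-1, was at 4860, 4940 and 4760 normalised reads with the NC mimic and at 5110, 5110 and 5160 with the miR-21-3p mimic. The groups did not overlap, but the difference was small. Its log2 fold change was 0.08 (95% interval -0.01 to 0.17; limma adjusted p = 0.222), and it ranged from 0.07 to 0.09 over 15 settings.

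The antagonist gene IL1RN (ENSG00000136689) was at 8000, 8160 and 8340 normalised reads in NC mimic replicates 1, 2 and 3 and at 8530, 9140 and 8840 with the miR-21-3p mimic. Each miR-21-3p library was above each NC library. The log2 fold change of 0.11 (95% interval 0.02 to 0.21) did not pass the test (limma adjusted p = 0.112), and ranged from 0.09 to 0.14 over 15 settings.

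Ratios within a library depend on the scaling between libraries only through the pseudocount of 0.5 added to each value. The antagonist IL1RN was compared with IL1A, the agonist with fewer normalised reads. Its ratio to IL1B was not run. The log2 ratio of IL1RN to IL1A was 8.18, 7.51 and 7.87 with the NC mimic and 7.09, 7.38 and 7.44 with the miR-21-3p mimic. The groups did not overlap, and the difference was -0.55 (exact permutation p = 0.1, two-sided, the smallest that 3 against 3 libraries can give). Most of it came from IL1A, with a log2 fold change of 0.65 against 0.11 for IL1RN. The log2 ratio of IL1B to IL1A was 3.39, 2.88 and 3.10 with the NC mimic and 2.81, 3.05 and 3.18 with the miR-21-3p mimic. Here the groups overlapped, and the difference of -0.11 was within the spread (exact permutation p = 0.6, two-sided). This difference was 0.02 without NC mimic replicate 1 and -0.05 with a pseudocount of 5.

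IL1R1 (ENSG00000115594), the signalling receptor, was at 1420, 1360 and 1580 normalised reads in NC mimic replicates 1, 2 and 3 and at 1590, 1830 and 1660 with the miR-21-3p mimic. The groups were apart by a narrow margin, between 1580 and 1590. The log2 fold change of 0.22 (SE 0.068, 95% interval 0.07 to 0.37) did not pass the test (limma adjusted p = 0.0553). It passed with DESeq2 (adjusted p = 0.0478) and with edgeR scaled by library size alone (adjusted p = 0.0474), both on recovered reads, within a range of 0.0474 to 0.165 over 15 settings. IL1R1 shares exon bases with an antisense RNA gene, and IL1RAP with another non-coding gene. Whether reads were counted by strand is not given in the sources used here, so reads of each pair may not be told apart.

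IL1RAP (ENSG00000196083), the accessory chain, was at 1540, 1440 and 1580 normalised reads with the NC mimic and at 1400, 1500 and 1340 with the miR-21-3p mimic. The groups overlapped through replicate 2 of each. Its log2 fold change was -0.11 (95% interval -0.23 to 0.02; limma adjusted p = 0.255), and ranged from -0.15 without miR-21-3p mimic replicate 2 to -0.07 without miR-21-3p mimic replicate 3. MYD88 (ENSG00000172936), the adaptor, was at 2770, 2620 and 2670 with the NC mimic and at 2590, 2700 and 2530 with the miR-21-3p mimic. These groups overlapped too. The MYD88 log2 fold change was -0.04 (95% interval -0.14 to 0.06; limma adjusted p = 0.576), and it ranged from -0.07 without miR-21-3p mimic replicate 2 to -0.02 without NC mimic replicate 1 or miR-21-3p mimic replicate 3.

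**Figure D2:**
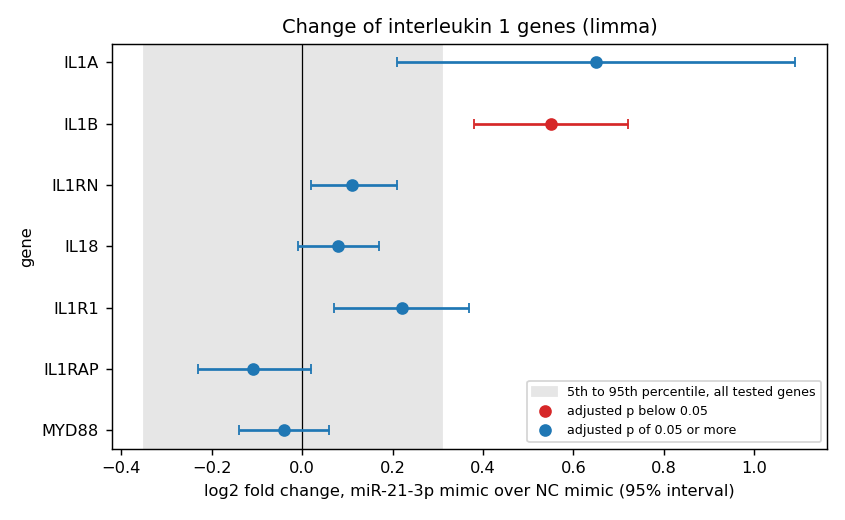
Log2 fold change of each gene, miR-21-3p mimic over NC mimic (horizontal axis), with its 95% interval from limma; the grey band runs from the 5th to the 95th percentile of all 14795 tested genes, -0.35 to 0.31. IL1A at 0.65 and IL1B at 0.55 lie above the band, and only IL1B had an adjusted p below 0.05.

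To compare levels between genes, normalised reads were divided by exon length in kb. The highest level was that of IL1RN, from 2457 to 2807 normalised reads per kb over the 6 libraries, followed by IL18 from 1811 to 1963, MYD88 from 634 to 694 and IL1R1 from 192 to 258. IL1A was the lowest, from 12.8 to 29.3. Neighbours in this order did not overlap, except IL1RAP, from 116 to 137, and IL1B, from 93 to 148. Their order differed between the groups. In the NC libraries IL1RAP was above IL1B, with means of 132 ± 6.24 and 99.4 ± 6.82 normalised reads per kb (SD, n = 3). In the miR-21-3p libraries IL1B was above IL1RAP, with means of 145 ± 3.28 and 122 ± 6.99. This order depends on the lengths used, 11558 exon bases for IL1RAP and 3096 for IL1B, which join all annotated exons of a gene. Other lengths could change it. Before division by length, IL1RAP was above IL1B in each library. The IL1RN level per kb was above that of 97.9% of tested genes, and that of IL1A above 9.75%.

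**Figure D3:**
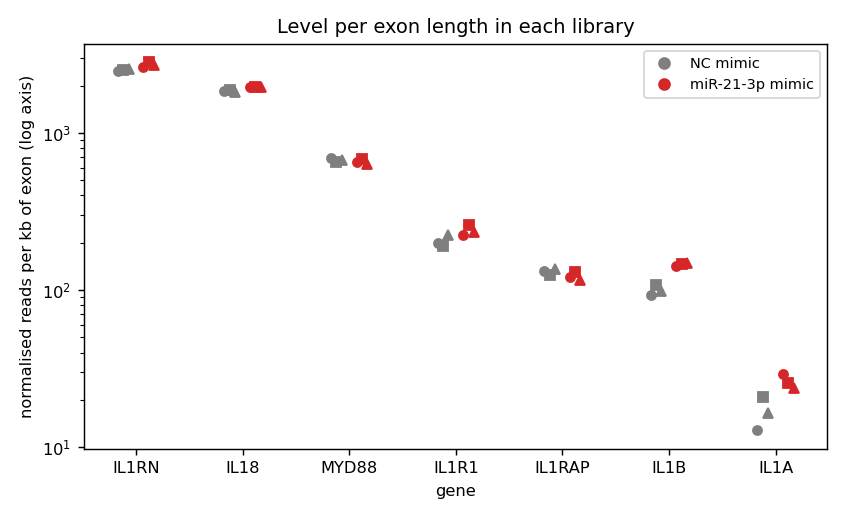
Normalised reads per kb of exon (log axis) of each gene in each of the 6 libraries, grey for the NC mimic and red for the miR-21-3p mimic. IL1RN is highest, at 2457 or more, and IL1A lowest, at 29.3 or less. With the exon lengths used, IL1B and IL1RAP change places between the groups.

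Among 15 other genes of the family, 4 were measured and tested (IL1RL2, IL18R1, IL18BP and SIGIRR), and 0 passed the limma test, with 0 below an unadjusted p of 0.05 and 0 called by DESeq2 or edgeR on recovered reads. On recovered reads, DESeq2 and edgeR each called 11.1% of all genes with an adjusted p. Of all tested genes, 10.8% passed and 28.5% were below an unadjusted p of 0.05, so 0 of 4 is near that background. Their median log2 fold change was -0.06. SIGIRR, a receptor that dampens signalling, had the highest mean of normalised reads among them, at 1357 ± 51.3 normalised reads with the miR-21-3p mimic and 1390 ± 91.7 with the NC mimic (SD, n = 3). IL18BP, which binds IL-18, was at 249 ± 49.7 and 285 ± 56.3, with a log2 fold change of -0.20 that ranged from -0.33 to -0.04 over 15 settings (adjusted p from 0.256 to 0.893). IL1RL2, the IL-36 receptor chain, was at 261 ± 22.6 and 225 ± 34.3, and did not pass with all 6 libraries. Without NC mimic replicate 2 it passed with a log2 fold change of 0.34 (limma adjusted p = 0.0369), the only pass in 15 settings, over which it ranged from 0.15 to 0.34 (adjusted p from 0.0369 to 0.537). The other 11 genes, with the IL-36 cytokines among them, were not analysed here.

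Of 18 genes that carry or modify the interleukin 1 signal, 15 were tested. Of these, 1 rose, 2 fell and 12 did not pass, against 6.11% called as higher and 4.66% as lower among all tested genes. The ranges of the groups were apart for 2 with the mimic higher and 3 with it lower, against 16.5% and 14.8%, and the median log2 fold change was -0.04. PELI2, an E3 ligase that acts on IRAK proteins, was at 199, 144 and 160 normalised reads with the NC mimic and at 95.9, 107 and 76.3 with the miR-21-3p mimic. The groups did not overlap, and PELI2 fell by 0.84 on the log2 scale (limma adjusted p = 0.00941). IRAK1, the kinase recruited to MYD88, was at 4090, 4170 and 3870 with the NC mimic and at 4620, 4430 and 4780 with the miR-21-3p mimic, again without overlap, a log2 fold change of 0.19 (limma adjusted p = 0.0275). SQSTM1, a scaffold that binds TRAF6, fell by 0.21 on the log2 scale (limma adjusted p = 0.032). The IRAK1 and SQSTM1 calls were lost without NC mimic replicate 1 (adjusted p = 0.0589 and 0.109), NC mimic replicate 3 (0.137 and 0.125), miR-21-3p mimic replicate 1 (0.111 and 0.122) or miR-21-3p mimic replicate 3 (0.11 and 0.113). UBE2N, a ubiquitin-conjugating enzyme that works with TRAF6, did not pass (limma adjusted p = 0.0633), but passed with DESeq2 on recovered reads (0.28, adjusted p = 0.0302), without NC mimic replicate 2 (0.37, adjusted p = 0.00492) and without miR-21-3p mimic replicate 2 (0.36, adjusted p = 0.0318), within a range of 0.20 to 0.37 over 15 settings (adjusted p from 0.00492 to 0.225). DESeq2 called 4 genes of the list, against 11.1% of all genes with an adjusted p from DESeq2. TAB3, which helps to activate the kinase TAK1, was also among the 3 genes of the list with the most normalised reads, at 4887 ± 155 and 4687 ± 75.7 (SD, n = 3).

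Of 19 genes of inflammasomes and cytokine processing, 11 were tested and 0 passed the limma test, with 4 below an unadjusted p of 0.05, 0 called by DESeq2 or edgeR on recovered reads and a median log2 fold change of -0.06. Of all tested genes, 10.8% passed and 28.5% were below an unadjusted p of 0.05. DESeq2 and edgeR on recovered reads each called 11.1% of all genes with an adjusted p. The ranges of the groups were apart with the mimic lower for 3 of the 11, against 14.8% of all tested genes, and with the mimic higher for 0, against 16.5%. Without NC mimic replicate 2, NLRP1, an inflammasome sensor of keratinocytes, passed with a log2 fold change of -0.32 (limma adjusted p = 0.0139), the only pass in 15 settings, over which it ranged from -0.32 to -0.15 (adjusted p from 0.0139 to 0.389). CASP1, the protease that cleaves the IL-1 beta and IL-18 precursors, was at 649 ± 24 normalised reads with the miR-21-3p mimic and 727 ± 34.7 with the NC mimic (SD, n = 3; limma adjusted p = 0.117), and it was chosen after its values were seen. CAPN1 and CAPN2, calpain proteases, had the most normalised reads of the list, at 19267 ± 603 and 11967 ± 306 with the miR-21-3p mimic and 19600 ± 200 and 12500 ± 458 with the NC mimic. CASP4, which senses cytosolic lipopolysaccharide, was at 2497 ± 89.6 and 2713 ± 104.

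Of 35 genes known to respond to interleukin 1 in keratinocytes, 18 were tested: 1 rose, 2 fell and 15 did not pass, against 6.11% called as higher and 4.66% as lower among all tested genes. The ranges of the groups were apart for 4 with the mimic higher and 4 with it lower, against 16.5% and 14.8%, and the median log2 fold change was 0.06. TNFAIP2 was at 19200, 15900 and 17700 normalised reads with the NC mimic and at 13100, 14500 and 12100 with the miR-21-3p mimic. The groups did not overlap, and TNFAIP2 fell by 0.41 on the log2 scale (limma adjusted p = 0.00885). LCN2, which encodes an iron-siderophore binding protein, was at 1070, 930 and 1030 with the NC mimic and at 803, 829 and 769 with the miR-21-3p mimic, and fell by 0.33 on the log2 scale (limma adjusted p = 0.0113). LIF, a cytokine of the IL-6 family, was at 536, 489 and 511 with the NC mimic and at 567, 607 and 643 with the miR-21-3p mimic. Its log2 fold change of 0.24 was close to the threshold (limma adjusted p = 0.0493), and the call was lost when any 1 of the 6 libraries was left out, with adjusted p of 0.07, 0.0754 and 0.148 without NC mimic replicates 1, 2 and 3 and of 0.0849, 0.0909 and 0.177 without miR-21-3p mimic replicates 1, 2 and 3. The TNFAIP2 and LCN2 calls were lost without NC mimic replicate 3 (adjusted p = 0.0536 and 0.0674), and the LCN2 call also without miR-21-3p mimic replicate 1 (0.0571) or replicate 3 (0.0506). Without NC mimic replicate 2, the chemokine gene CXCL1 (0.58, adjusted p = 0.0102) and the collagenase gene MMP1 (-0.66, adjusted p = 0.00478) passed. With all 6 libraries they were at 0.41 and -0.34 and did not pass (limma adjusted p = 0.103 and 0.318), nor did they in the 14 other settings. Over all 15, CXCL1 ranged from 0.31 to 0.58 (adjusted p from 0.0102 to 0.318) and MMP1 from -0.66 to -0.14 (adjusted p from 0.00478 to 0.747). MMP1 was at -0.14 without NC mimic replicate 1 and at -0.23 without NC mimic replicate 3 (adjusted p = 0.619). DESeq2 on recovered reads called 2 genes of the list, TNFAIP2 and LCN2, against 11.1% of all genes with an adjusted p from DESeq2. SOD2, a mitochondrial superoxide dismutase, and TNIP1, an inhibitor of NF-kB signalling, were, with TNFAIP2, the genes with the most normalised reads, at 3550 ± 26.5 and 1850 ± 131 with the miR-21-3p mimic and 3723 ± 76.4 and 1977 ± 106 with the NC mimic.

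**Figure D4:**
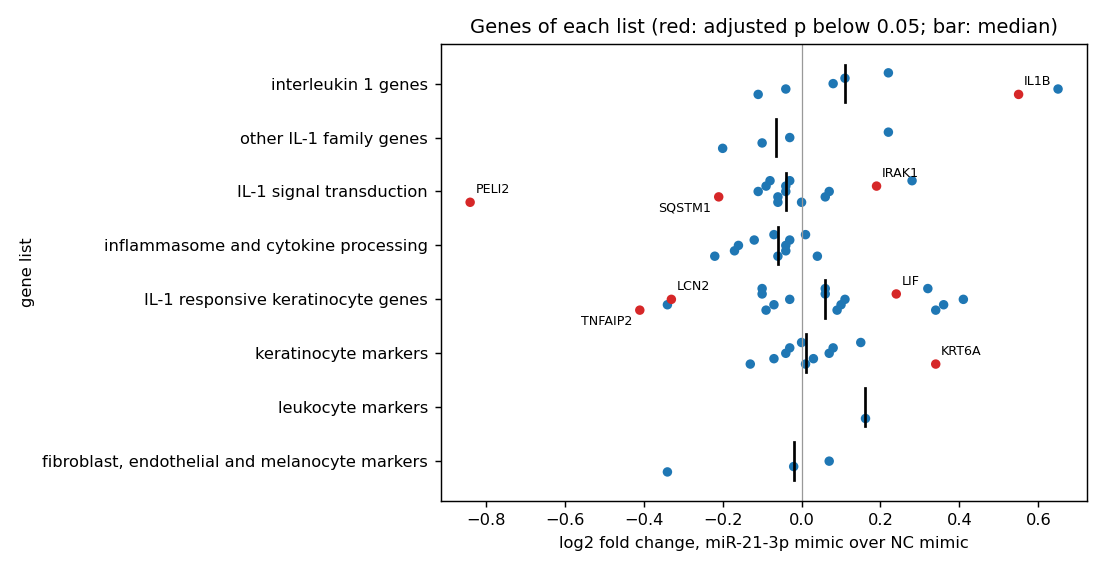
Log2 fold change, miR-21-3p mimic over NC mimic (horizontal axis), of each tested gene in each list; red points had an adjusted p below 0.05 and black bars are list medians. The genes marked red in the pathway lists lie on both sides of 0, from PELI2 at -0.84 to LIF at 0.24.

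On chromosome 2, IL1A, IL1B and IL1RN belong to a block of 9 genes of which 3 were measured. CKAP2L, a mitotic spindle gene that lies next to IL1A outside the block, was at 1820, 2250 and 2040 normalised reads with the NC mimic and at 2600, 2690 and 2660 with the miR-21-3p mimic. It and the other flanking genes were chosen after their values were seen. These groups did not overlap, and the log2 fold change was 0.38 (limma adjusted p = 0.00764). PSD4, next to IL1RN, was at 2277 ± 136 and 2167 ± 121 (SD, n = 3; limma adjusted p = 0.451). Beside the receptor block, MAP4K4 and SLC9A4 had log2 fold changes of 0.18 and 0.59 and did not pass (limma adjusted p = 0.0544 and 0.0528). Without NC mimic replicate 2 both passed (0.0183 and 0.0277), and SLC9A4 also passed with edgeR on recovered reads, with RLE factors (adjusted p = 0.0491) or TMM (adjusted p = 0.049). Over 15 settings MAP4K4 ranged from 0.14 to 0.22 (adjusted p from 0.0183 to 0.16) and SLC9A4 from 0.46 to 0.68 (adjusted p from 0.0277 to 0.203).

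Likeness of pattern was measured as the root-mean-square distance between log2 profiles over the 6 libraries, each centred on its own mean. The genes most like IL1B were SPRY4 (0.034) and SH3KBP1 (0.044), and those most like IL1A were STEAP1 (0.11) and EIF2AK1P1 (0.11). For IL1RN they were RHOA (0.013) and PNMA1 (0.014), for IL18 GGCX (0.012) and WEE1 (0.012), and for IL1R1 the pseudogenes RYKP1 (0.02) and ST13P18 (0.024). DDIT4 (0.013) and ZNF827 (0.013) were nearest to IL1RAP, and COBL (0.0086) and STIM1 (0.0094) to MYD88. Distances are small where a gene itself varied little, as MYD88 did.

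Keratinocyte markers were present in each library. Of 13 listed, 11 were measured, and KRT5, KRT14 and DSP, genes of basal keratins and of a desmosome protein, led them. KRT5 was at 133000 ± 7211 normalised reads with the miR-21-3p mimic and 130667 ± 8021 with the NC mimic (SD, n = 3), KRT14 at 34733 ± 1834 and 36533 ± 3156, and DSP at 58367 ± 1656 and 55433 ± 1115. Of the 11, only KRT6A, a keratin of activated keratinocytes, passed the test, with a log2 fold change of 0.34 (limma adjusted p = 0.00207), a share near the 10.8% of all tested genes. KRT16, another keratin of activated keratinocytes, was at 0.01 (limma adjusted p = 0.951), and ranged from -0.05 to 0.12 over 15 settings (adjusted p from 0.539 to 0.999). Without NC mimic replicate 2, TP63 (-0.16, adjusted p = 0.0472) and SFN (0.18, adjusted p = 0.0241) passed as well. SFN also passed with DESeq2 (adjusted p = 0.0294) and with edgeR scaled by library size alone (adjusted p = 0.0476). Over 15 settings TP63 ranged from -0.16 to -0.09 (adjusted p from 0.0472 to 0.321) and SFN from 0.13 to 0.18 (adjusted p from 0.0241 to 0.224). Of 10 leukocyte markers, 1 was measured, CD14, at 89.6, 58.7 and 79.1 normalised reads with the NC mimic and at 91.8, 92.2 and 69.1 with the miR-21-3p mimic. These groups overlapped, and CD14 did not pass (limma adjusted p = 0.594). Of 11 markers of fibroblasts, endothelial cells and melanocytes, 3 were measured (COL1A1, VWF and PMEL), and their summed level was 1435, 1311 and 1332 with the NC mimic and 1229, 1277 and 1251 with the miR-21-3p mimic. VWF had the most normalised reads, at 740 ± 25.2 and 749 ± 45.1, and PMEL was at 141 ± 13.5 and 134 ± 18.3. COL1A1 was at 371 ± 7.02 and 476 ± 85 (SD, n = 3; limma adjusted p = 0.0641), a log2 fold change of -0.34. It passed with DESeq2 on recovered reads (adjusted p = 0.0273) and without NC mimic replicate 2 (-0.48, adjusted p = 0.00186), but was at -0.22 without NC mimic replicate 1 (adjusted p = 0.212), and these were the ends of its range over 15 settings. The part of these markers in the interleukin 1 results was not tested. The cultures were of the HaCaT line, so these markers are read as its own RNA and not as shares of other cell types. In RNA from whole cultures, fewer cells with a transcript and less of it per cell cannot be told apart.

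**Figure D5:**
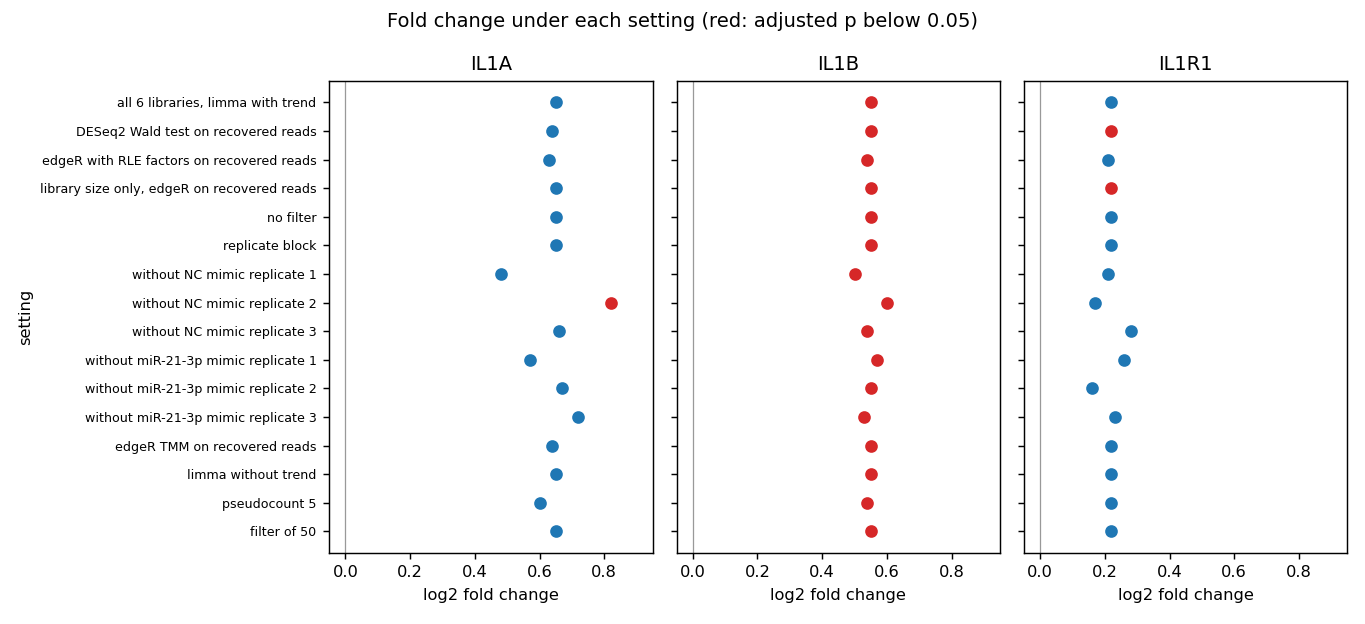
Log2 fold change (horizontal axes) of IL1A, IL1B and IL1R1 under the fit of all 6 libraries and each of 15 other settings; red points had an adjusted p below 0.05. IL1B is red in each setting, from 0.50 to 0.60, IL1A is red only without NC mimic replicate 2, at 0.82, and IL1R1 is red with DESeq2 and with edgeR scaled by library size alone.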

How the data were processed

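Poly(A) RNA of 6 HaCaT libraries was sequenced on an Illumina NextSeq 500. Per the labels, the submitters' processing notes name bcl2fastq 2.18.12, cutadapt 1.15, TopHat2 2.1.1, featureCounts (Subread 1.5.2) and DESeq2; genome build and annotation are not given in the sources used here. The deposited signal values are gene counts divided by size factors, written with 3 significant digits. Dividing by the value of 1 read gave whole reads (within 0.1) for 100% of low values, up to about 20 reads, in each library; higher values are limited by rounding.

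As the values were not raw counts, the edgeR test first planned was replaced by limma 3.58.1 (R 4.3.3, prior variance following mean level) on log2(value + 1), which understates changes of low genes. edgeR 4.0.16 (TMM, 1649 genes called) and DESeq2 1.42.0 on recovered reads were alternatives. Genes that reached 10 in fewer than 3 libraries were left out. Ratios used a pseudocount of 0.5. Exon lengths are from the union of GENCODE v29 exons. The labels call the libraries biological replicates without saying what separated them. The p-values refer to the spread between these libraries, which limma combined with the variance of other genes of like mean level. Replicate pairs differed by more than sampling noise.

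The genes and lists were chosen with earlier results of these data known. Named were all 8 genes, called genes and the 3 most abundant of each other list, and the 2 genes nearest in pattern. Genes of the lists called only in an alternative and not named by that (UBE2N, NLRP1, CXCL1, MMP1, TP63 and SFN) were added after their values were seen, in the same way for each list, as were CASP1, KRT16 and the flanking genes. Alternatives left out each library, changed scaling, filter and pseudocount, or added a replicate block.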

Additional observations from a re-analysis of the deposited data

How the results depend on the processing

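No interleukin 1 gene changed direction in 15 alternatives, and IL1B passed in each. Of these alternatives, edgeR with TMM, limma without trend, the pseudocount of 5 and the filter of 50 were chosen after seeing the data. The interleukin 1 genes called were 2 with DESeq2, 2 with library size only in edgeR and 1 to 2 when leaving out 1 library, where 11.1%, 10.3% and 1.19% to 20% of all genes with an adjusted p were called. When leaving out 1 library the second was IL1A, without NC mimic replicate 2, the setting with 20%. IL1R1 had a log2 fold change of 0.22 in both DESeq2 and library size only (adjusted p = 0.0478 and 0.0474), and 0.16 to 0.28 when leaving out 1 library, while IL1A ranged from 0.48 to 0.82. The genes called numbered 176 to 2957 when leaving out 1 library and 50 in limma without trend, where the cause was not tested. Deviations from the group mean correlated at -0.0023, -0.2 and -0.16 between the libraries with replicate numbers 1, 2 and 3. Differently numbered libraries were not compared, so these values do not settle whether the replicate numbers pair the libraries. With a replicate block 1193 genes and 1 interleukin 1 gene were called, IL1B with a log2 fold change of 0.55; the IRAK1, SQSTM1 and LIF calls were lost (adjusted p = 0.0643, 0.0542 and 0.0901). In limma without trend the calls of IRAK1, PELI2, SQSTM1, LIF, TNFAIP2, LCN2, KRT6A and CKAP2L were lost. The difference in the IL1B to IL1A log2 ratio ranged from -0.23 to 0.02 when leaving out 1 library. Log2 fold changes of 7 other genes that did not pass also turned: SIGIRR from -0.08 to 0.02, KRT5 from -0.02 to 0.07, CD14 from -0.01 to 0.30, VWF from -0.04 to 0.03, PMEL from -0.00 to 0.18, IL18R1 from -0.27 to 0.03 and KRT16 from -0.05 to 0.12. The ratio of IL1R2 to IL1R1 was not run, since IL1R2 was not analysed here. IL1A had 26 to 61 reads per library.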
